A study of Mus musculus with 72 samples.

Results

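RC-3095 (RC), a synthetic peptide antagonist of the gastrin-releasing peptide receptor, was given together with gastrin-releasing peptide (GRP) to cells of the mouse melanoma line 1057, and their RNA was compared with that of cells given GRP alone. The comparison takes 3 libraries of cells given 10 nM GRP with 1 microM RC (GRP+RC) and 3 of cells given 10 nM GRP, which are 6 of the 72 RNA-seq libraries of the series and were chosen by the line and the treatment in the labels. The same line also had 3 libraries of mock-treated cells (0.1% DMSO) and 3 of cells given 1 microM RC, so that 12 libraries show how much of the GRP response was left under the antagonist. Line 1057 is a single GRPR-positive line from a female mouse. All its groups share the transgenes Tyr::NRASQ61K/° and Tyr::CreA/°, in which the tyrosinase promoter directs mutant NRAS and Cre to pigment cells, the loss of Cdkn2a (Cdkn2a-/-) and the deletion of the E-cadherin gene (Cdh1dF/dF). Cells were kept for 18 h in 0.5% serum and then treated for 4 h. Line 1064 has the same genotype and sex and also expresses the receptor. The female line 1014-Grpr carries Tyr::NRASQ61K/° and a receptor transgene driven by the CMV promoter (CMV::Grpr/tGFP). The lines labelled receptor-negative were 1014-Ctrl (female, Tyr::NRASQ61K/° with CMV::tGFP) and 1181-Ctrl (male, Tyr::NRASQ61K/°, Cdkn2a-/-, °/° in place of the Cre, Cdh1dF/dF, CMV::tGFP). A further male line, 1181-Grpr, carries CMV::Grpr/tGFP in place of the CMV::tGFP of 1181-Ctrl. The genotype given for 1181 names the deleted Cdh1 allele without a Cre, whereas the paper describes line 1181 as Ecad-positive. This conflict was not resolved here. The study's methods describe its culture experiments as biological replicates, the labels only number these libraries, and p-values measure the spread between them.

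GRPR is a G-protein-coupled receptor of the bombesin family. When GRP binds, the Gq class of G proteins activates phospholipase C beta, which releases the second messengers IP3 and diacylglycerol, and these raise intracellular calcium and activate protein kinase C. Within hours such receptors are known to induce immediate-early transcription factors (FOS, EGR, NR4A), growth factors, proteases and the feedback inhibitors of the pathway, and a competitive antagonist occupies the binding site of the ligand.

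The 12 libraries of 1057 held 30085080 to 38579420 counted reads, with 2.10% to 2.38% of them from mitochondrial genes. All 7 melanocyte lineage markers were detected, with a summed level of 7962 to 8547 CPM (read counts scaled to a common library size). Of the markers of other cells, 4 of 5 for keratinocytes (Krt14 at 0 in every library), 4 of 5 for fibroblasts, 2 of 4 for endothelium, 5 of 6 for leukocytes (Adgre1 at 0) and 2 of 4 for Schwann cells stayed under 1 CPM throughout. The summed leukocyte list moved with treatment, from 1.17 to 1.67 CPM in mock to 5.12 to 5.80 with GRP and 2.58 to 3.16 with GRP+RC, through Cd68 alone. The fibroblast list was at 3.6 to 4.36 CPM in mock, 5.0 to 5.70 with GRP and 5.26 to 6.61 with GRP+RC. The part of such cells in the results was not tested. Of the Y-linked genes Ddx3y, Uty and Eif2s3y had no count and Kdm5d at most 2, whereas Xist had 33053 to 62166, as for a female line. Grpr itself was present in every library, at 243, 247 and 246 CPM in mock, 187, 179 and 191 with GRP, 185, 189 and 186 with RC, and 167, 178 and 188 with GRP+RC. The level with GRP+RC did not pass the test against GRP (log2 fold change -0.07, SE 0.04, edgeR adjusted p = 0.237).

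RC reversed the GRP response of 1057 in part. Among genes that GRP had raised, the scaffold protein gene Ahnak fell from 300 to 96.5 CPM and the matricellular gene Ccn1 from 19.6 to 5.32 CPM. The nuclear receptor gene Nr4a3 was lower too but stayed at 135 CPM, against 214 with GRP and 2.85 in mock. A further kind of gene, with the protease Plau among them, was at least as high with both agents as with GRP. Genes are named here as called when the edgeR adjusted p was under 0.05 and the change above 2-fold. Of 14195 genes tested, 107 were called lower and 38 higher in GRP+RC against GRP (0.754% and 0.268%, or 1.02% in both directions). GRP against mock called 704 genes higher and 213 lower (4.96% and 1.50%). Of the 107 genes lowered by RC, 102 were among the 704 raised by GRP, and 5 were not called for GRP. Of the 38 genes raised by RC, 16 were among the 213 lowered by GRP, and 22 were not called for GRP. Both comparisons use the same 3 GRP libraries, so that these counts describe the libraries and are no test. DESeq2 called 62 of the 145 genes and gave no adjusted p to the other 83, and 1 fit of all 72 libraries, with a spread shared by all lines, called 7. In cultured cells, fewer cells of a kind and less RNA per cell cannot be told apart.

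**Figure D1:**
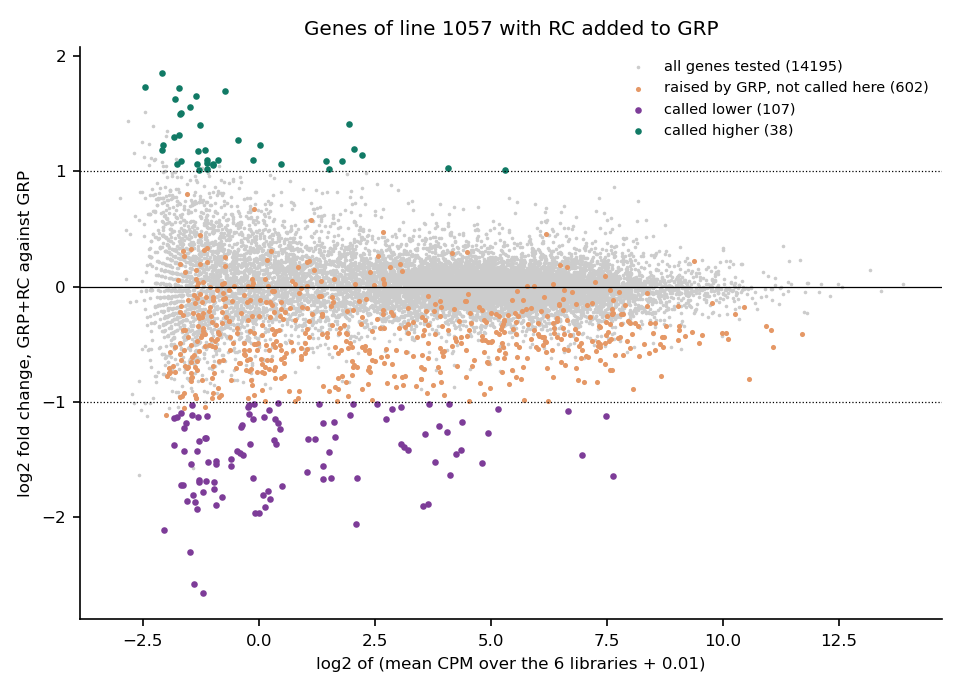
Log2 fold change of GRP+RC against GRP (vertical axis) against log2 of the mean CPM plus 0.01 over the 6 libraries (horizontal axis) for the 14195 genes tested in 1057, with the 107 genes called lower in purple, the 38 called higher in green and the other 602 GRP-raised genes in orange. Most orange points lie between no change and the dotted line of a 2-fold fall.

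At the adjusted p alone 435 of the 704 GRP-raised genes were lower with GRP+RC, of which 333 changed by under 2-fold, 260 did not pass and 9 were higher. Over all genes the adjusted p alone passed 13.7% as lower and 11.0% as higher. In 495 of the 704 all 3 GRP+RC libraries lay below all 3 GRP libraries. The share over all genes was not counted, and the 704 were chosen with the same GRP libraries, so that this count is a description. Against mock, 386 of the 704 were still called higher with GRP+RC, 605 passed the adjusted p, and 99 did not. Of the 213 GRP-lowered genes, 16 were called higher with GRP+RC, 111 passed in that direction at the adjusted p alone, and 43 were still called lower against mock. The comparison of GRP+RC with mock called 428 genes higher and 65 lower (3.02% and 0.458%, or 3.47% in all). Of these, 386 were GRP-raised, 43 GRP-lowered and 64 not called for GRP.

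The size of what was left was taken as the share of the GRP-induced difference in mean CPM that remained with both agents, computed as (GRP+RC minus mock) over (GRP minus mock). For the 520 GRP-raised genes with at least 1 CPM in a group the median share left was 56.9% (interquartile range 41.7% to 73.0%), and it was 55.2% to 59.4% in the single GRP+RC libraries. Under 25% was left in 41 genes, 25% to 50% in 156, 50% to 75% in 204, 75% to 100% in 83, and 100% or more in 36. The 148 GRP-lowered genes kept a median of 72.2% (60.8% to 82.2%). The share left was smaller for genes with the largest response, with a median of 39.3% for those raised by over 3 on the log2 scale, against 58.2% for those raised by 1 to 2 and 56.9% for those raised by 2 to 3. A noisy GRP mean enters both the response and the share, so this order is a description.

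**Figure D2:**
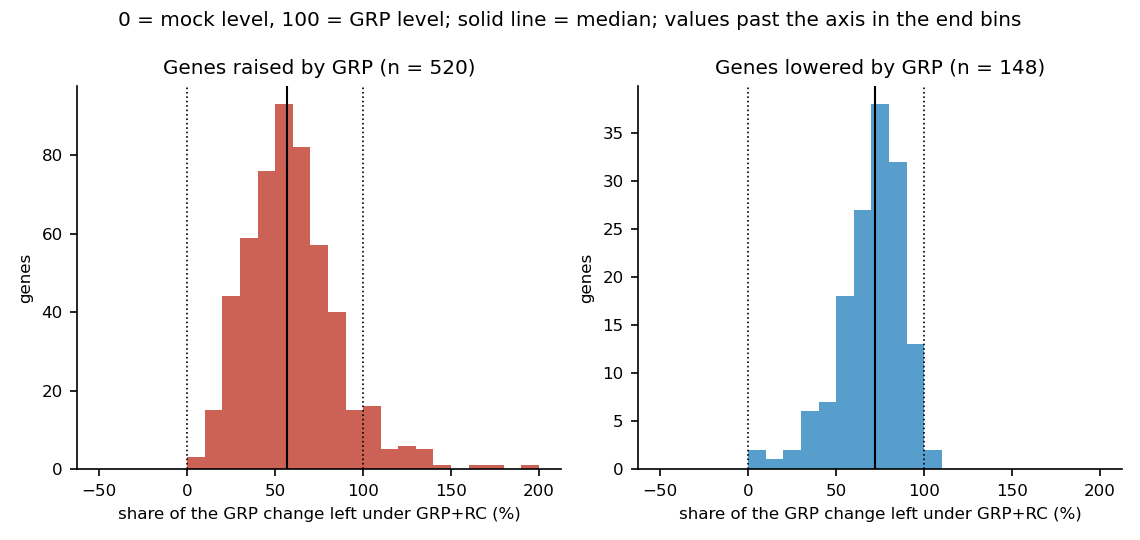
Number of genes (vertical axis) by the share of the GRP change left with GRP+RC, in percent (horizontal axis), for the 520 GRP-raised and 148 GRP-lowered genes of 1057 with at least 1 CPM. The solid lines are the medians, 56.9% and 72.2%, and the dotted lines mark the mock level at 0 and the GRP level at 100.

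Among the genes most strongly reversed was Ahnak, which encodes a very large scaffold protein under the plasma membrane (GRCm38 chromosome 19, 8989284 to 9076914, plus strand). It was at 34.2, 31.0 and 34.1 CPM in mock, 303, 294 and 305 with GRP, and 94.9, 88.0 and 107 with GRP+RC. The groups did not overlap, and the level with both agents was 3.11-fold below that with GRP (log2 -1.64, SE 0.06, edgeR adjusted p = 6.40e-12) and 2.91-fold above mock. Itga3, the integrin alpha 3 subunit of laminin receptors, had the same course, with 25.3, 25 and 28.1 CPM under GRP and 7.72, 8.07 and 9.65 with GRP+RC (log2 -1.63, SE 0.09, edgeR adjusted p = 2.75e-10). Ccn1 encodes a secreted matricellular protein and is a target of YAP1 and SRF (chromosome 3, 145646976 to 145649981, minus strand). Its level was 1.28, 0.943 and 0.992 CPM in mock, 17.6, 20.7 and 20.4 with GRP, and 5.43, 4.90 and 5.64 with GRP+RC (log2 -1.88, SE 0.09, edgeR adjusted p = 7.01e-11), so that 23.0% ± 2.05 (SD, n = 3 GRP+RC libraries) of the rise was left. Ptprn, a protein of secretory granule membranes, fell from 18.7, 17.1 and 19.0 CPM to 4.31, 4.67 and 5.73 (log2 -1.91). Procr, the endothelial protein C receptor, fell from 5.96, 7.43 and 7.26 CPM to 1.59, 1.64 and 1.74 (log2 -2.06), with 19.1% ± 1.24 of its rise left. No GRP+RC library reached a GRP library in either gene.

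The other leading genes were low in CPM and had larger errors. The ubiquitin ligase Rnf183 had 2.04, 2.09 and 1.37 CPM with GRP and 0.546, 0.538 and 0.436 with both agents (log2 -1.84, SE 0.23). Nxph3, a secreted neurexin ligand, changed by -1.97 on the log2 scale, the prolactin-releasing hormone receptor Prlhr by -1.91, the glycine N-acyltransferase Glyat by -1.77, the neuropeptide precursor Vgf by -1.73, and the organic anion transporter family member Slco5a1 by -1.66, with SEs from 0.18 to 0.31. Samd11 changed by -1.66, and 28.5% of its exon bases overlap another gene. The strand setting of the counting is not given in the sources used here, so that reads of overlapping genes may be mixed in it.

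**Figure D3:**
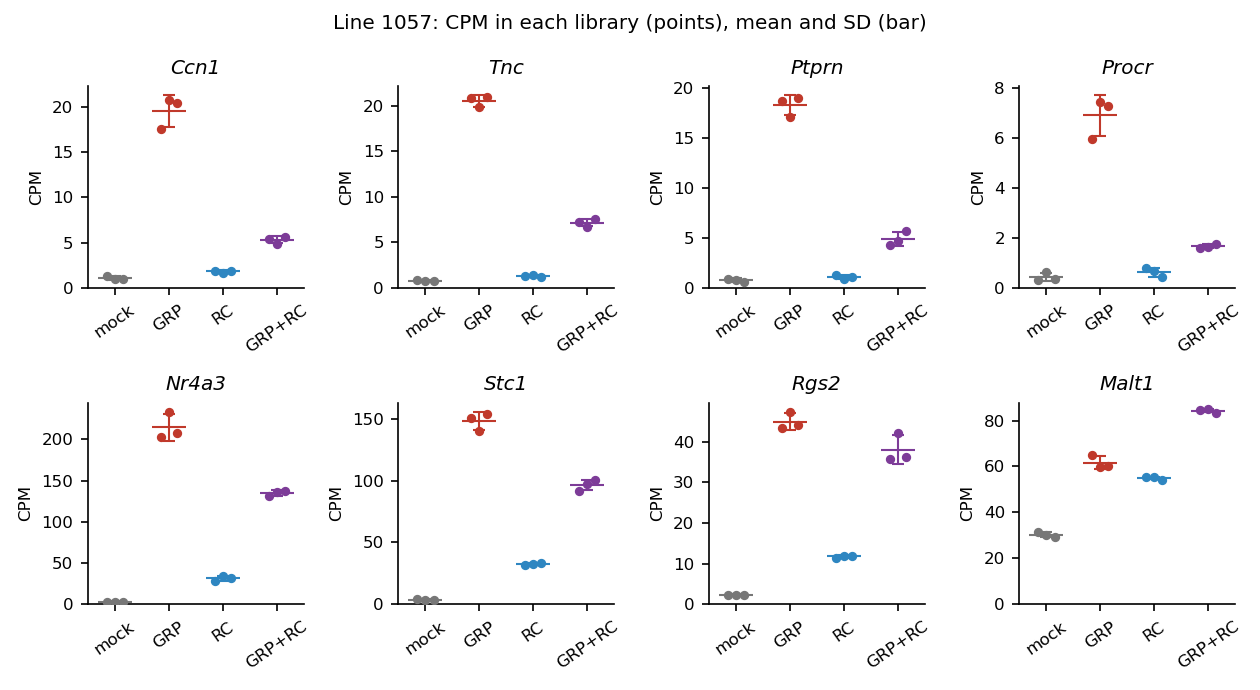
Level in CPM (linear axes from 0) of 8 genes in the 12 libraries of 1057 by treatment (mock, GRP, RC, GRP+RC), with a point per library, the mean and the SD. With GRP+RC, Ccn1, Tnc, Ptprn and Procr lie above mock and nearer to it than to GRP, Nr4a3, Stc1 and Rgs2 lie nearer to GRP than to mock, and Malt1 lies above GRP.

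Genes of plasminogen activation, metalloproteinases and matricellular proteins held the most calls of any list, with 7 of 26 tested members called lower, 15 lower at the adjusted p alone and a median log2 change of -0.55 against -0.00 over all genes. GRP had raised 15 of them, 12 were still called against mock, and a median of 39.9% of the rise was left in the 14 with at least 1 CPM. For this and all lists below, the share over all genes was 0.754% called lower. At the adjusted p alone it was 13.7% lower and 11.0% higher. Tenascin C (Tnc), an adhesion-modulating matrix protein, was at 0.846, 0.721 and 0.716 CPM in mock, 20.9, 19.9 and 21.0 with GRP, and 7.20, 6.74 and 7.54 with GRP+RC. The groups did not overlap, and the change from GRP was -1.52 on the log2 scale (SE 0.07, edgeR adjusted p = 3.41e-11). Mmp10, the metalloproteinase stromelysin 2, had 13.1, 10.6 and 12.4 CPM with GRP and 4.83, 5.18 and 3.89 with GRP+RC (log2 -1.36, SE 0.12). Serpinb2, a plasminogen activator inhibitor, fell from 3.73, 3.62 and 4.29 to 1.22, 1.22 and 1.53 CPM (log2 -1.56), and Mmp13, a collagenase, fell from 0.502, 0.295 and 0.350 to 0.0780, 0.113 and 0.0623 CPM (log2 -2.11, SE 0.56). With both agents Mmp13 did not pass the test against mock (log2 -0.11, edgeR adjusted p = 0.925). The urokinase system did not move as one. The urokinase receptor Plaur fell from 20.6, 19.4 and 21.3 to 8.92, 8.89 and 8.78 CPM (log2 -1.20), and Serpine2, a secreted serine protease inhibitor, changed by -1.06 on the log2 scale, both named after their values were seen. Urokinase itself, Plau, stood at 41.0, 36.1 and 37.6 CPM in mock, 102, 85.8 and 92.8 with GRP, and 111, 103 and 100 with GRP+RC. Its GRP+RC libraries overlapped the GRP libraries, and the difference was 0.17 on the log2 scale (SE 0.06, edgeR adjusted p = 0.0328).

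Growth factors, cytokines and hormones came next, with 6 of 25 tested members called lower, 13 lower and 6 higher at the adjusted p alone, and a median of -0.34. Inhba, the activin A subunit, had no count in the 3 mock libraries, 1.47, 1.48 and 1.49 CPM with GRP, and 0.442, 0.227 and 0.467 with GRP+RC (log2 -1.96, SE 0.25, edgeR adjusted p = 2.17e-05). The cytokine Il11, of the IL-6 family, went from 1.47, 1.82 and 1.57 to 0.416, 0.368 and 0.623 CPM (log2 -1.81, SE 0.24). For both, all GRP+RC libraries lay between mock and GRP. Il6 changed by -1.69 (SE 0.35) and the neurotrophin Bdnf by -1.66 (SE 0.27), with no library above 1.50 CPM for either. The other called members, named after their values were seen, were the EGF receptor ligand Areg, from 26.8, 29.2 and 29.6 to 12.9, 12.7 and 12.5 CPM (log2 -1.17, SE 0.07), and the natriuretic peptide gene Nppb, from 12.3, 13.4 and 14.5 to 5.02, 4.84 and 5.17 CPM (log2 -1.42, SE 0.09). The leukaemia inhibitory factor Lif, of the same cytokine family as Il11, was at 88.9, 80.7 and 84.1 CPM with GRP and 100, 96.1 and 91.6 with GRP+RC, a difference of 0.18 (SE 0.04, edgeR adjusted p = 0.00201) in the other direction.

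Start regions are shown for some, not all, of the named GRP-raised genes that hold a short motif. RefSeq start sites were found for 30 of the 35 named GRP-raised genes, and the 150 bases before each start were searched on both strands for the AP-1 letters TGACTCA, for the cAMP response element (CRE) letters TGACGTCA, for CATTCC, bound by the TEAD partners of YAP1, and for the TATA box letters TATAAA. At least 1 of these motifs was found in 15 of the 30 genes, AP-1 letters in 8, TEAD in 3, TATA in 7 and CRE in 0. Among all 32851 RefSeq promoters 2.84% held AP-1, 7.59% TEAD, 7.57% TATA and 1.36% CRE. Genes with several start sites had more than 1 window searched, the number of genes is small, and a match of letters is not a bound site. The sequences below are from GRCm38.p6, 5′ to 3′ on the gene's strand and end at the base before the start, with the motif letters of either strand in capitals. The first 4 hold AP-1 letters, Mmp10 63 and Mmp13 35 bases before the start and both with a TATA box closer to it, Il11 98 bases and Rnf183 35 bases before 1 of their 2 starts, and Ccn1 holds TEAD letters 103 and a TATA box 25 bases before it. The regions are chr9:7502192-7502341 (Mmp10, plus strand), chr9:7272364-7272513 (Mmp13, plus), chr7:4778142-4778291 (Il11, minus), chr4:62434641-62434790 (Rnf183, minus) and chr3:145649986-145650135 (Ccn1, minus).
Mmp10: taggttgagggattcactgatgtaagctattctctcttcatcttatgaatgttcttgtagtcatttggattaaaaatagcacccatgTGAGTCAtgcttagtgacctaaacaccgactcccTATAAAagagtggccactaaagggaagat
Mmp13: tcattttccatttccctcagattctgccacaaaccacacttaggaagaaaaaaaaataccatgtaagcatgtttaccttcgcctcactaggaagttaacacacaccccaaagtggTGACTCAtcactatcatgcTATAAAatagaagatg
Il11: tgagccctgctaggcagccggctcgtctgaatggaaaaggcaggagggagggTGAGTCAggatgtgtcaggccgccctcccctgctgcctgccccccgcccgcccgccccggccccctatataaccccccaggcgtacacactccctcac
Rnf183: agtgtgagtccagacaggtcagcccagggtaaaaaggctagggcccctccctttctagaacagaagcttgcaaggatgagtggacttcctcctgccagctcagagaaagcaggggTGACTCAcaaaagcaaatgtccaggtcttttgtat
Ccn1: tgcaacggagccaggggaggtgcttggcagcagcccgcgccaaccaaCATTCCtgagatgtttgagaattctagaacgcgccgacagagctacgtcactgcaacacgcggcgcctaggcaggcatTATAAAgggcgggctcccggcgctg

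None of the 16 EGR, NR4A and KLF genes was called in GRP+RC against GRP, with 6 lower and 1 higher at the adjusted p alone and a median of -0.05, although GRP had raised 6 of them. Of these 6, 5 were still called against mock and a median of 67.8% of the rise was left. The nuclear receptor Nr4a3 (chromosome 4, 48045153 to 48086447, plus strand) was at 3.17, 3.14 and 2.23 CPM in mock, 203, 233 and 207 with GRP, and 131, 136 and 137 with GRP+RC. All GRP+RC libraries were below all GRP libraries (log2 -0.67, SE 0.06, edgeR adjusted p = 2.59e-07) and 47.4-fold above mock in the mean. Nr4a2 had 94.1, 96.6 and 93.4 CPM with GRP and 64.1, 64.8 and 65.5 with both agents, with 64.7% ± 0.837 left. In the AP-1 family 1 of 10 was called lower, Fosl1, from 3.26, 3.73 and 3.76 to 1.72, 1.47 and 1.56 CPM (log2 -1.18), a gene with 57.2% of its exon bases shared with a neighbour. Over the 5 GRP-raised AP-1 members with at least 1 CPM the median share left was 76.1%.

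Other genes with the largest response left under RC were led by signalling proteins. The secreted glycoprotein Stc1, stanniocalcin 1, was at 151, 140 and 154 CPM with GRP and 92.0, 97.4 and 100 with GRP+RC, against 4.23, 3.69 and 3.33 in mock (log2 from GRP -0.62, SE 0.04). Rgs2, which accelerates GTP hydrolysis by Gq, kept 83.7% ± 8.37 of its rise, with 43.3, 47.4 and 44.1 CPM under GRP and 35.7, 42.1 and 36.2 with both. All 3 libraries with both agents lay below the 3 with GRP for both genes. Ramp3, a partner protein of calcitonin-family receptors, fell from 37.7, 45.2 and 41.0 to 12.9, 15.9 and 14.3 CPM (log2 -1.53) and was still 24.3-fold above mock. The prostaglandin F receptor Ptgfr changed by -0.57, the membrane protease Tmprss11f by -0.99, the kinase Brsk2 by -0.63 and the secretory pathway pseudokinase Fam20a by -0.50 on the log2 scale, the last without passing the test (edgeR adjusted p = 0.207). C2cd4b changed by -1.33, with 47.2% of its exon bases overlapping another gene.

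A small set was not reversed and stood higher with both agents than with GRP. Malt1, a protease and scaffold of NF-kappaB signalling, was at 31.4, 30.1 and 29.3 CPM in mock, 64.9, 59.8 and 60.2 with GRP, 55.3, 55.4 and 54.3 with RC alone, and 84.7, 84.9 and 83.5 with GRP+RC. The 4 groups did not overlap, and the rise over GRP was 0.45 on the log2 scale (SE 0.04, edgeR adjusted p = 4.08e-08). The glucose transporter Slc2a3 had 17.2, 14.2 and 16.6 CPM with GRP and 20.3, 19.3 and 19.2 with both (log2 0.30). Nlrp10, of the NOD-like receptor family, the transmembrane protein gene Tmem252 and the Wnt ligand Wnt9b changed by 0.30, 0.47 and 0.58. RC alone had raised each of these 5 genes over mock, by 0.86 to 1.25 on the log2 scale. Of the genes called in GRP+RC against mock but not for GRP, Klhl6, Clic5, Tmc8, Scarf1 and Kctd12b differed from mock by 1.32 to 1.64 with both agents, against 0.88 to 0.97 with GRP.

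RC alone was not silent in this line. Against mock it called 115 genes higher and 11 lower (0.810% and 0.0775%). Of the 115, 101 were among the 704 GRP-raised genes, and of the 11, 6 were among the 213 GRP-lowered. Nr4a3 reached 27.7, 34.5 and 31.7 CPM with RC alone, above all mock libraries (log2 3.46, edgeR adjusted p = 2.27e-13), and Stc1 31.5, 32.5 and 33.3 CPM (log2 3.11). C2cd4b, Brsk2 and Ptgfr were the other named genes, at log2 3.09, 3.24 and 2.55 over mock, with no RC library above 1.37 CPM. Over the 520 GRP-raised genes RC alone reached a median of 19.2% of the GRP rise (18.2% to 19.4% in single libraries), and over the 148 GRP-lowered genes 35.9% of the fall. By the response to RC alone, the 704 genes fell into 101 called higher, 270 higher at the adjusted p only, and 333 not higher. Of these 3 sets 77, 269 and 174 genes had at least 1 CPM. They kept medians of 71.9%, 60.9% and 40.3% of the GRP rise with both agents. Of the full sets of 101, 270 and 333, 10, 16 and 76 genes were called lower in GRP+RC against GRP. All these shares use the same mock libraries. The 3 sets also differed in their GRP response, with median log2 changes of 2.57, 1.36 and 1.51. Whether the response to RC alone relates to the share left was not tested.

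The effect of RC in the presence of GRP was tested against its effect in the absence of GRP. The difference was called in 297 genes as lower and 55 as higher (2.09% and 0.387%). Of the 704 GRP-raised genes 291 were called lower here, and 43 of the 213 GRP-lowered genes were called higher. The 704 and 213 genes were chosen with the same mock and GRP libraries, which favours these directions. These 2 counts therefore describe the libraries and are no test. Nr4a3 had a difference of -4.13, Stc1 of -3.73, Ahnak of -2.04, Ccn1 of -2.63 and Ramp3 of -3.74 on the log2 scale. For Nr4a3 and Stc1 most of it was the rise with RC alone given above, and both fell by under 2-fold when RC was added to GRP. For Stc1 these parts were 3.11 and -0.62. Plau had a difference of -1.03 (edgeR adjusted p = 2.79e-08), since RC raised it by 1.20 without GRP and by 0.17 with it. Il11, Vgf, Cd36 and Ptgs2, all under 3 CPM, were called lower in GRP+RC against GRP and did not pass this test (edgeR adjusted p = 0.164, 0.263, 0.161 and 0.499).

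Of the 38 genes called higher with GRP+RC than with GRP, the 16 lowered by GRP included En2 and Kcnj10. En2, a homeobox factor, was at 5.79, 7.44 and 7.11 CPM in mock, 2.26, 1.96 and 2.10 with GRP, and 5.93, 4.90 and 5.89 with GRP+RC (log2 from GRP 1.41, SE 0.12, edgeR adjusted p = 1.20e-07). The inwardly rectifying potassium channel Kcnj10 had 13.5, 14.2 and 13.2, then 2.66, 2.95 and 3.12, then 5.64, 6.83 and 6.88 CPM in the same order, and kept 67.0% ± 6.54 of its fall. The sorting receptor Sorcs3, the peroxisomal transporter Abcd2, the milk protein gene Lalba and the muscarinic receptor Chrm1 rose by 1.27, 1.10, 1.09 and 1.06. Of the 22 not called for GRP some were also higher with RC alone. Kank3, an actin-regulating adaptor, was at 9.78, 12.3 and 11.1 CPM in mock, 12, 10.7 and 10.7 with GRP, 21.2, 20.5 and 21.4 with RC, and 23.2, 22.9 and 22.2 with both. The libraries with RC did not overlap those without it. Nol4 (log2 1.20) and the small GTPase Rasl11a (log2 1.09) were also higher with RC alone, by 1.28 and 0.97. Rasgrp3, an exchange factor for RAS that diacylglycerol activates, was the called member of the 19 Gq, phospholipase C, IP3 receptor and PKC genes, with 46.4, 43.4 and 45.8 CPM in mock, 28.0, 25.5 and 25.5 with GRP, and 51.6, 53.8 and 53.3 with GRP+RC (log2 1.01, SE 0.04). Its fold lies at the threshold, and leaving out single libraries removed its call in 3 of 12 cases, that of Rgs17 in 4, that of Cd68 in 2 and that of Abcd2 in 1.

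Further lists moved with few or no calls. Over all genes 13.7% were lower and 11.0% higher at the adjusted p alone. Of 21 ATF4 and unfolded protein response genes 0 were called, but 15 were lower at the adjusted p alone (median -0.34), among them the mitochondrial folate enzymes Mthfd2, from 91.4, 91.4 and 92.3 to 57.2, 57.8 and 53.3 CPM (log2 -0.71, SE 0.04), and Aldh1l2 (log2 -0.95). GRP had raised 8 of the 21, and a median of 50.9% of their rise was left. DNA replication and mitosis genes were higher than with GRP by small amounts, 16 of 31 at the adjusted p alone, with a median of 0.17. Against mock their median was -0.30 with GRP, -0.02 with RC alone and -0.11 with GRP+RC. Cdc6, which loads the replicative helicase, was at 11.5, 12.2 and 11.4 CPM with GRP and 16.5, 18.1 and 15.9 with GRP+RC (log2 0.52, SE 0.07). Gins1 changed by 0.43. All 31 genes of the list had a change from GRP above 0, from 0.02 to 0.52. Of 12 MYC, cyclin and CDK inhibitor genes 6 were higher at the adjusted p alone (median 0.12), led by the G1 cyclin Ccnd3, from 261, 256 and 259 to 386, 385 and 384 CPM (log2 0.57, SE 0.03). The 17 MAP kinase feedback genes had 8 lower and 4 higher at the adjusted p alone and 0 called. Members moved apart, the EGFR inhibitor Errfi1 by -0.57 and the sprouty inhibitor Spry1 by 0.56. The 17 cAMP and CREB feedback genes had 0 calls (median -0.01), with the kinase Sik1 at -0.62 and the phosphodiesterase Pde4d at -0.68, and its 4 GRP-raised members kept a median of 86.5%.

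YAP/TAZ targets had 1 call of 21, Ccn1, and a median of -0.15. At the adjusted p alone 11 were lower and 4 higher, against 13.7% and 11.0% of all genes. Ccn2, related to Ccn1, was lower by 0.57 and is named after its value was seen. The 6 tested genes of the study's anoikis score had 1 call, the fatty acid transporter Cd36, from 0.721, 0.885 and 0.583 to 0.104, 0.142 and 0.0934 CPM (log2 -2.66, SE 0.42). Rsad2, Mtpn, Renbp, Cdhr1 and Atp10b had log2 values of -0.24, -0.19, -0.02, 0.61 and 0.90, of which Mtpn passed (edgeR adjusted p = 0.000241). The score is the study's own, and its count is not independent evidence of a direction. SRF and actin genes had 1 call of 13, the LIM-domain protein Fhl2 (log2 -1.34), with 9 lower at the adjusted p alone. Prostaglandin and sphingosine phosphate genes had 1 of 12, the cyclooxygenase Ptgs2 (log2 -1.68), and RGS, arrestin and receptor kinase genes 1 of 18, Rgs17, from 3.54, 3.30 and 2.92 to 1.48, 1.76 and 1.59 CPM (log2 -1.02).

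The remaining lists, those of cell type markers aside, had no call and medians between -0.08 and 0.18. Calcineurin and NFAT genes had a median of -0.01 (11 tested), NF-kappaB feedback -0.08 (13), melanocyte pigment genes -0.01 (19), neural crest and EMT genes 0.03 (16), Wnt targets 0.04 (16), sex hormone receptors and oestrogen targets 0.02 (6), the BCL2 family 0.03 (14), cholesterol and fatty acid synthesis -0.00 (25), ribosome biogenesis -0.00 (24), glycolysis and hypoxia -0.04 (18), interferon-stimulated genes -0.04 (12), housekeeping genes -0.05 (10) and bombesin-family receptors and ligands 0.18 (2). Single members still moved within them. The pigment enzyme Tyrp1 fell back from 159, 159 and 172 to 105, 109 and 108 CPM, against 83.6, 75.8 and 78.9 in mock, a change of -0.61 (SE 0.04, edgeR adjusted p = 2.64e-09). The melanocyte regulator Mitf, named after its values were seen and not called for GRP, was at 386, 375 and 368 CPM in mock, 692, 753 and 730 with GRP, and 604, 652 and 641 with both agents. The tested melanocyte, keratinocyte, fibroblast and endothelium markers had medians of -0.05, -0.23, 0.05 and 0.17 with no call. Of the marker lists the leukocyte list had the 1 call, Cd68, a lysosomal protein, from 5.39, 5.85 and 5.19 to 2.96, 2.80 and 2.30 CPM (log2 -1.02).

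**Figure D4:**
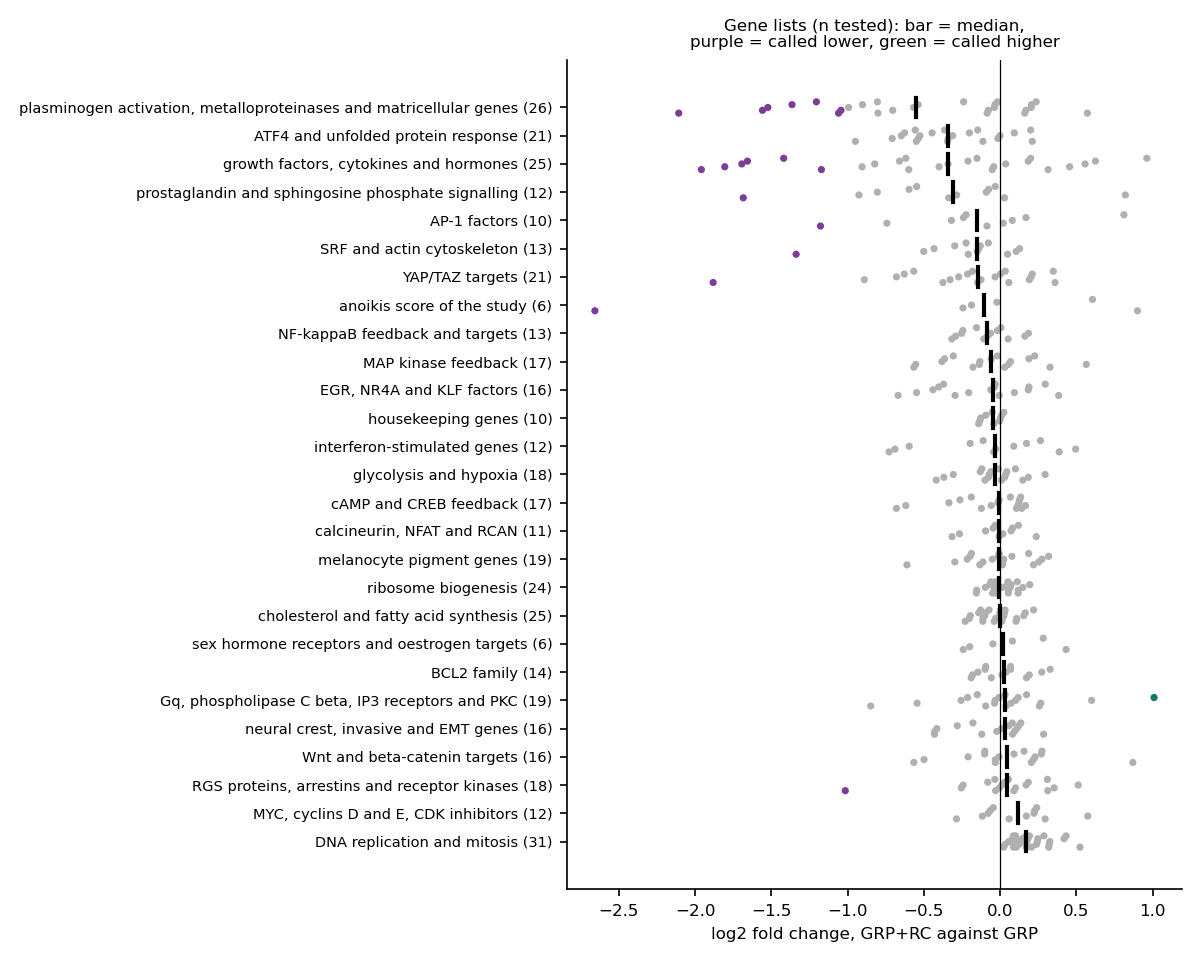
Log2 fold change of GRP+RC against GRP (horizontal axis) for the tested members of each gene list in 1057, with the number tested in brackets, the median as a bar, and called members in purple (lower) or green (higher). The plasminogen, metalloproteinase and matricellular list at the top has 7 called members and a median of -0.55, and all 31 DNA replication and mitosis genes lie above 0.

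GRP response genes were also chosen without any library of 1057. The 106 genes called higher by GRP in both 1064 and 1014-Grpr included 102 that were tested in 1057. Of these, 16 were called lower with GRP+RC against GRP in 1057, against 0.754% of all genes, 81 were lower and 4 higher at the adjusted p alone, and the median was -0.40 against -0.00 over all genes. Against mock 46 of the 102 were still called. Of the 17 genes lowered in both other lines 16 were tested, 0 were called higher (edgeR, 6 higher at the adjusted p alone) and the median was 0.20. Same-numbered libraries of 1064 and 1014-Grpr deviated together, and a choice of genes with a replicate block gave 195, of which 181 were tested in 1057, 27 called lower and 128 lower at the adjusted p alone, with a median of -0.41.

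The share of the GRP rise left was higher in 1057 than in 1064 and 1014-Grpr. In 1181-Grpr, also labelled GRPR-positive, no gene was called by edgeR for GRP against mock or for GRP+RC against GRP (45 and 320 genes at an unadjusted p under 0.05, and 0 calls with a replicate block, chosen after the data were seen, with 157 and 658), so that it has no share to give. For the 60 genes called higher by GRP in all 3 lines the median share left was 50.3% in 1057, 21.3% in 1064 and 15.1% in 1014-Grpr. The medians of single GRP+RC libraries were 50.7% to 52.3%, 18.5% to 30.1% and 13.6% to 16.3%, which did not overlap between 1057 and the others. The share was highest in 1057 for 59 of the 60 genes. RC alone reached 15.6% to 18.0% of the GRP rise in libraries of 1057, 6.11% to 20.2% in 1064 and 2.39% to 2.72% in 1014-Grpr, so that the ranges of 1057 and 1064 overlapped. These shares were not tested and the choice of genes used GRP libraries of each line.

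**Figure D5:**
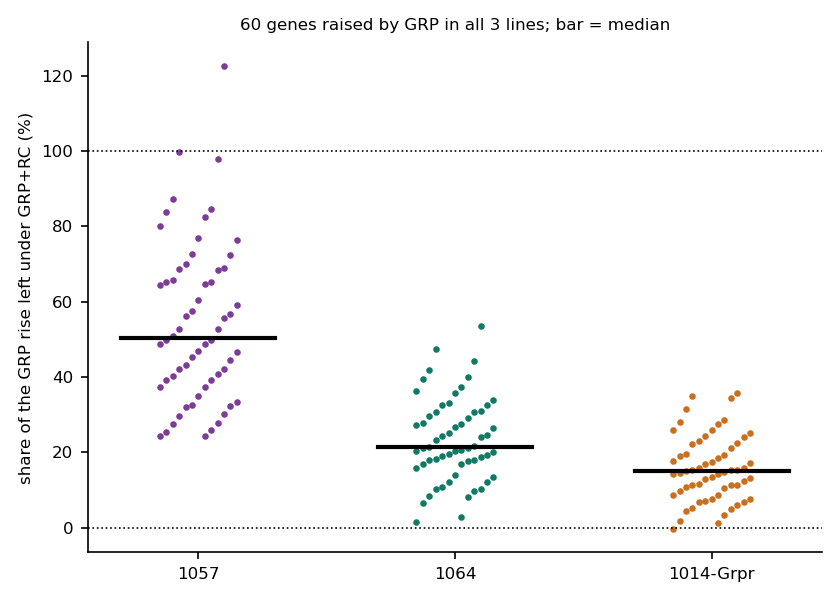
Share of the GRP rise left with GRP+RC, in percent (CPM scale), for the 60 genes raised by GRP in 1057, 1064 and 1014-Grpr, one point per gene and line with the median as a bar. The medians are 50.3%, 21.3% and 15.1%.

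The difference between lines was tested gene by gene in one fit of 36 libraries, in which CPM values are scaled over these libraries. Without the block it was called in 1 of 15897 genes against 1064 (0.00629%) and in 44 against 1014-Grpr (0.277%), of which 40 were higher in 1057 and 4 lower. All 40 had a fitted change below 0 in 1014-Grpr, and 20 of them had one below 0 in 1057. Grpr itself was among the 40, with a difference of 1.23 (SE 0.20, edgeR adjusted p = 0.00223). Its fitted change was -1.28 in 1014-Grpr and -0.05 in 1057, and its part in the shares left was not tested. With a replicate block within lines, 70 genes were called higher and 43 lower in 1057 than in 1064, and 141 higher and 37 lower than in 1014-Grpr, with 25 higher against both. Plau was the gene called against 1064, where GRP gave 1.74, 2.86 and 2.67 CPM and GRP+RC 0.646, 0.544 and 0.441, and the difference of the RC effects was 2.32 (SE 0.41, edgeR adjusted p = 0.0268), a call lost whichever of the 6 GRP and GRP+RC libraries of 1057 was left out. Against 1014-Grpr the largest named differences were in Tnf, Rgs16 and Lif. Rgs16, another RGS protein, stood at 28.1, 91.9 and 43.4 CPM with GRP and 0.809, 5.06 and 2.77 with GRP+RC in 1014-Grpr, and at 1.03, 1.59 and 1.12 and then 1.07, 1.16 and 1.51 in 1057, a difference of 4.22 (SE 0.79, edgeR adjusted p = 0.00606). The 2 groups overlapped in 1057 and did not in 1014-Grpr. Against mock, GRP changed Rgs16 by 1.63 in 1057 and 8.09 in 1014-Grpr on the log2 scale in this fit, and Tnf by 0.01 and 4.37.

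Genes named above were among those that differed from both lines with the block. Ccn1 kept 23.2% of its rise in 1057, 7.64% in 1064 and 7.22% in 1014-Grpr, with differences of 1.12 (edgeR adjusted p = 0.0194) and 1.55 (0.000699). Rgs2 kept 84.5%, 21.5% and 15.3%, with differences of 1.52 and 1.66. For Nr4a2, which kept 65.3%, 18.3% and 14.2%, they were 1.16 and 1.14, and for Tnc 1.35 and 1.93. Without the block none of these 4 genes was called against 1064, and of the 4 only Rgs2 was called against 1014-Grpr.

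In the receptor-negative lines no gene was called in GRP+RC against GRP by edgeR, in 1181-Ctrl with 36 and in 1014-Ctrl with 75 genes at an unadjusted p under 0.05. With a replicate block the calls were again 0, with 820 and 152 at an unadjusted p under 0.05. A mock library of 1014-Ctrl stood apart from its group, and without it the count was again 0. Both settings were chosen after the data were seen. In 1057 the same comparison had 4915 genes at an unadjusted p under 0.05. In the GRPR-positive lines 1064 and 1181-Grpr it had 1376 and 320, or 4943 and 658 with a replicate block. The number thus also varied among lines with the receptor.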

How the data were processed

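RNA was made from cells of each line and treatment in 3 libraries with a stranded mRNA kit. Per the labels and the methods of the study, the authors aligned reads with STAR to the mouse genome (mm10) with GENCODE gene models, checked them with FastQC 0.11.5, and deposited raw read counts per gene (50600 genes). The authors also deposited TPM (transcript counts scaled by length and library size), written with a decimal comma for the 1057 columns, with the gene length used not given in the sources used here. The strand setting of counting was not given either. Reads carry no molecular identifiers.

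From the counts, genes were kept with edgeR's filterByExpr in the 12 libraries of 1057 (14195 genes) and scaled by TMM. A model with 1 term per treatment was fitted with edgeR's quasi-likelihood test (edgeR 4.0.16, limma 3.58.1, R 4.3.3), with Benjamini-Hochberg adjustment over all genes tested and two-sided p-values. A gene was called at an adjusted p under 0.05 and a change over 2-fold. CPM are TMM-scaled counts per library size, compared between groups and never between genes. Line differences came from 1 fit of 36 libraries of 3 lines (15897 genes). Positions are GRCm38 from the GENCODE annotation at hand, and promoters are RefSeq on GRCm38.p6. The fits were tested on simulated counts with 200 known changes in genes over 1 CPM, scored at the adjusted p alone. For GRP+RC against GRP in 1057, 99% of 2-fold and 100% of 4-fold changes were recovered, with 14 false calls. For the difference from 1014-Grpr these were 66% and 85%, with 9 false calls.

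Named genes were the 15 genes called lower and the 15 called higher with the largest change at 1 CPM or more, up to 4 called members of each list or otherwise the 2 that moved most, the genes of the study's score, up to 10 genes called both for GRP and for GRP+RC against mock, up to 5 others called against mock, up to 5 that moved least or further, up to 5 called for RC alone, up to 5 a direction for each line difference, and Grpr. Predicted, antisense and overlapping genes could be left out. The members and the 34 gene lists were chosen with earlier results of these data known.

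Within 1057 same-numbered libraries did not deviate together (correlations of residuals from -0.15 to 0.11). In 1064 and 1014-Grpr they did (0.58 to 0.84 and 0.39 to 0.54), so that values with a replicate block stand beside results that use those lines. Alternatives were DESeq2 1.42.0, its size factors in edgeR, no filter, no fold threshold, the block, all 72 libraries in 1 fit, each library left out, and limma on log2(TPM + 1) of the deposited TPM. Results for 2 genes are not reported here.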

Additional observations from a re-analysis of the deposited data

Results flagged for a closer look

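The effect of RC added to GRP differed between lines in tests of the difference itself, which used the replicates of each line. It was called in 1 gene between 1057 and 1064 and in 44 genes between 1057 and 1014-Grpr, on the log2 scale and as 1057 minus the other line. With a replicate block, as same-numbered libraries of 1064 and 1014-Grpr deviated together, it was called in 113 and 178 genes. Plau differed by 2.32 from 1064, with means of 96.7 CPM with GRP and 110 with GRP+RC in 1057 against 2.42 and 0.544 in 1064.

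Against 1014-Grpr the differences were 5.33 for Tnf, 4.22 for Rgs16, 3.73 for Lif, 3.55 for Eda2r and 3.46 for Inhba. The cytokine Tnf had means of 0.288 CPM with GRP and 0.953 with GRP+RC in 1057, and of 0.543 and 0.0413 in 1014-Grpr. In 1057 the Tnf mean was 0.287 in mock and 0.865 with RC alone. Lif had 87.5 and 100 CPM in 1057 and 84.5 and 7.28 in 1014-Grpr. Its mock means were 42.9 CPM in 1057 and 1.97 in 1014-Grpr, and those with RC alone 81.7 and 3.33. The GRP responses of Lif thus differed in size, at log2 1.03 and 5.42 over mock. Eda2r, a receptor of the TNF receptor family, had 23.0 and 26.0 CPM in 1057 and less than 1 CPM in 1014-Grpr, at 0.446 and 0.0410. Inhba had 1.53 and 0.395 CPM in 1057 and 12.5 and 0.292 in 1014-Grpr, a lower mean with GRP+RC in both lines.

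In the other direction the mitochondrial transcripts mt-Nd4l and mt-Co3 differed by -2.65 and -1.07. They had means of 0.564 and 7.45 CPM with GRP and 2.26 and 14.2 with GRP+RC in 1014-Grpr, and of 0.466 and 3.36, then 0.298 and 3.07, in 1057. The levels of these genes differ between lines, and the part of that difference was not tested. In 1057 mitochondrial genes held 2.10% to 2.38% of the counted reads, so the counts of mt-Nd4l and mt-Co3 were a small part of them. Why these 2 counts were so low was not tested.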

How the results depend on the processing

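DESeq2 called 48 genes lower and 14 higher in GRP+RC against GRP, 47 of them GRP-raised and 9 GRP-lowered, with no adjusted p for the other 83 of the 145 genes, and 13 genes for the difference from 1064. Without the fold threshold 1946 genes were lower and 1555 higher, of which 1622 and 1224 had the opposite GRP change at that rule, 5305 GRP response genes were still called against mock, 6282 genes were called for GRP+RC against mock, 3448 for RC against mock, 3658 for the RC effect with minus without GRP, 81 of the genes chosen in other lines, and 5 and 99 for the differences from 1064 and 1014-Grpr. Limma on log2(TPM + 1), which understates changes of low genes, gave 30 lower, 3 higher, 29 and 2 against the GRP change, 165 still called, 174, 34 and 141 for the same comparisons, and 103 of its lost calls missed the fold. The fit of all 72 libraries gave 6 lower, 1 higher, 6 and 1 against the GRP change, 247 still called, 265, 15 and 26, and 134 of the lost calls missed the adjusted p. Without the filter 59 genes were called higher. With DESeq2 size factors in edgeR all 145 calls were shared.

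With a replicate block the calls within 1057 were 106 lower and 37 higher, of which 140 were shared, where the same numbers do not pair the libraries (5 of 12 libraries correlated best with their own number). In the paired lines the block gave 113 genes for the difference from 1064, 178 for that from 1014-Grpr, and 27 of the genes chosen in other lines.

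Leaving out 1 library at a time gave 101 to 115 genes lower, 33 to 43 higher, 96 to 107 GRP-raised genes lower, 15 to 23 GRP-lowered genes higher, 416 to 444 still called, 495 to 526 for GRP+RC against mock, 115 to 139 for RC, 302 to 352 for the RC effect with minus without GRP, 16 to 17 of the genes chosen in other lines, 30 to 43 for the difference from 1014-Grpr and 0 to 0 for that from 1064, where Plau lost its call each time. Of 518 comparisons of 64 values of named genes with an alternative, 452 kept direction and side of the threshold, 65 no longer passed it, 1 newly passed it and 0 turned direction. In genes under 1 CPM a change of 2-fold rests on few reads, and intervals and tests cover these libraries only.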
